A study of Mus musculus with 60 samples.

Results

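H4K8ac, acetylation of lysine 8 of histone H4, was compared in the right hippocampus between 2 groups of male Emx1-NuTRAP mice from the same litters. The exercised group could run on a wheel in the cage between postnatal days 21 and 41, and the sedentary group lived in standard cages. The data were 2 pooled peak lists, 1 for each condition, made by CUT&RUN, in which an antibody-directed nuclease releases the DNA that carries a mark. Together they held 38874 of the 256375 peaks in the 12 lists of the series, 13715 in the exercised list and 25159 in the sedentary list. Each condition had 3 samples in the labels. Every mouse, sedentary included, carried both the NuTRAP cassette, which tags nuclei and ribosomes, and Emx1-Cre, which switches it on in the Emx1 lineage from development onward, in the hippocampus mostly excitatory neurons. The right hippocampus was taken for chromatin alone (the separate isolation), so these nuclei were not used for RNA.

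Acetylation of the H4 tail weakens the hold of histones on DNA, and it is laid down at the promoters and enhancers of active genes by acetyltransferases, removed by deacetylases and read by bromodomain proteins. In the hippocampus histone acetylation is known for its part in the gene activity that follows learning. A peak here is a region that passed the peak caller's threshold, and the lists give its position and annotation but no height or read count. Since each condition had 1 pooled list, no difference between conditions could be tested against the spread between mice. Intervals of a share are 95% Wilson intervals and cover counting error only. The exercised list was the shorter, and the study left out several exercised H4K8ac libraries of the separate isolation (and no sedentary ones) for too high a false discovery rate. The sources used here do not say how many of these came from the right side, so the exercised list may rest on fewer than the 3 labelled samples. List length and exercise therefore cannot be told apart in any count or peak width below.

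The sequences that follow are windows of 200 bases inside promoter peaks of 5 genes, from the GRCm38.p6 plus strand, with each CG dinucleotide in capitals. They are selected examples that lie at different places relative to the gene starts, so they do not describe a class of gene. Arc and St3gal2 had peaks in the exercised list alone, Dlg4 and Adcy1 in the sedentary list alone, and Eno2 in both. They lie at chr15:74673520-74673719, chr8:110919674-110919873, chr11:70029280-70029479, chr11:7064441-7064640 and chr6:124768923-124769122, in that order.
Arc: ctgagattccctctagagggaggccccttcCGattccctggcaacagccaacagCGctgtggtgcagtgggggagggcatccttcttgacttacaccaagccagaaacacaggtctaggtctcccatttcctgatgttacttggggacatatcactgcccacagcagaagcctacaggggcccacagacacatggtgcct
St3gal2: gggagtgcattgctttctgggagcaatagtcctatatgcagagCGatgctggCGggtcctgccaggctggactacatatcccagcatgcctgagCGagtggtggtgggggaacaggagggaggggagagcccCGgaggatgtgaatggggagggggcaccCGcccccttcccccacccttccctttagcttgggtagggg
Dlg4: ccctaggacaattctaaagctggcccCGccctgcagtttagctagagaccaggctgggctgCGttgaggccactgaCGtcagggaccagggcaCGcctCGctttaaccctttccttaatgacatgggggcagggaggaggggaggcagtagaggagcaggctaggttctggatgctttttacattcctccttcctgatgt
Adcy1: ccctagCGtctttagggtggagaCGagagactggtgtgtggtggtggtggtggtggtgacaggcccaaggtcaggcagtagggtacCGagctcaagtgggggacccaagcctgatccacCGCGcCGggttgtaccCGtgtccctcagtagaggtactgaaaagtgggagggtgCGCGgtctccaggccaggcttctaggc
Eno2: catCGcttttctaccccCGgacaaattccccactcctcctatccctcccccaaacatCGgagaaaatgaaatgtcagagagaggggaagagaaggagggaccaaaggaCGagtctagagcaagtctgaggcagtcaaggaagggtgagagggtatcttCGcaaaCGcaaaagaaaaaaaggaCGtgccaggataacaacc
The windows held 2 CG dinucleotides at Arc, 5 at St3gal2, 5 at Dlg4, 9 at Adcy1 and 7 at Eno2. The Dlg4 window contained the cAMP response element TGACGTCA, and none of the other windows did.

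Exercised peaks often lay where the sedentary list also had a peak. Of the 13715 exercised peaks, 9325 overlapped a sedentary peak by at least 1 base, or 68.0% (67.2 to 68.8), and 3943 lay wholly inside one. Of the 25159 sedentary peaks, 8950 overlapped an exercised peak, or 35.6% (35.0 to 36.2), and 653 lay wholly inside one. The 4390 exercised peaks outside the sedentary list were a median of 12338 bp from its nearest peak, and 536 of them were within 1000 bp. The 16209 sedentary peaks outside the exercised list were a median of 31005 bp away. When the sedentary list was reduced to its 13715 widest peaks, 50.1% of exercised peaks overlapped it. When the overlap had to cover 50% of both peaks, the shares were 39.2% of exercised and 21.4% of sedentary peaks.

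Where the conditions shared a region, the exercised peak was usually the narrower. An effect of exercise on width cannot be told apart from a difference in the libraries or reads behind the lists. In the 7696 regions where 1 exercised peak met 1 sedentary peak and no other, the median width was 1604 bp in the exercised list and 2249 bp in the sedentary list. The exercised peak was narrower in 5852 of these pairs, or 76.0%, and the median ratio of widths was 0.746. The ratio was 0.782 in the 2198 promoter pairs and 0.729 in the others. In 98.96% of the pairs both peaks were assigned to the same gene. Overlap was counted from 1 base, so a wider peak could meet another more easily. Peaks wider than 2000 bp overlapped more often than narrower ones. Of the 131 exercised peaks wider than 5000 bp, 130 overlapped a sedentary peak, and of the 797 such sedentary peaks 691 overlapped an exercised peak. Of exercised peaks between 1200 and 1500 bp, 60.8% overlapped, and of sedentary peaks of that width 23.2%. For peaks of up to 1200 bp the shares were 65.8% and 28.8%, so below 2000 bp the overlap was not ordered by width.

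**Figure D1:**
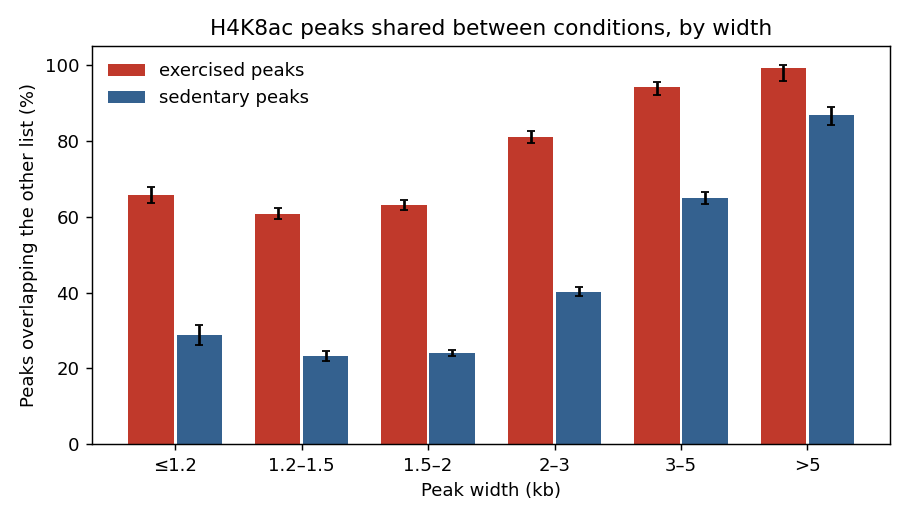
Share of H4K8ac peaks that overlapped a peak of the other condition (percent) by peak width (kb), with bars for the exercised (red) and sedentary (blue) list and 95% Wilson intervals. The share rose above 2 kb in both lists, to 99.2% of exercised and 86.7% of sedentary peaks over 5 kb.

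The widest exercised peak covered 19372 bp of intergenic DNA on chromosome 13, from 84745766 to 84765137, and lay inside a sedentary peak of 25060 bp. The widest exercised promoter peak covered 17606 bp at Gm17750 on the same chromosome, and a sedentary peak of 19232 bp overlapped it. The widest sedentary peak, 35468 bp over promoters of Tcf4, a helix-loop-helix transcription factor of neurons, met 7 separate exercised peaks, the largest 10322 bp wide. Tcf4 also led the genes listed in both conditions by total width, with 48 exercised and 53 sedentary peaks. It was followed by Celf2, an RNA-binding splicing regulator (51 and 60 peaks), Anks1b, a postsynaptic scaffold (39 and 58), 5730522E02Rik (36 and 41) and Celf4, an RNA-binding protein of neurons (26 and 42).

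Promoters, here within 3 kb of a start site, held 26.5% of all exercised and 24.1% of all sedentary peaks, a difference of 2.39 percentage points. Among overlapping peaks the promoter share was 27.4% (exercised) and 28.2% (sedentary). Among peaks of 1 list alone the promoter share was 24.5% (exercised) and 21.8% (sedentary). Among these peaks the gap was larger in intergenic DNA, which held 24.1% of peaks in the exercised list alone against 31.2% of those in the sedentary list alone, a difference of -7.03 percentage points. Introns after the first held 28.5% and 24.4% of these peaks. A start site lay inside 1964 exercised peaks (14.3%) and 3676 sedentary peaks (14.6%). Among overlapping peaks it lay inside 15.9% (15.2 to 16.6) in the exercised list and 19.2% (18.4 to 20.1) in the sedentary list. Within 1000 bp of a start site were 21.4% of exercised and 19.7% of sedentary peaks, a difference of 1.75 percentage points (0.91 to 2.59, a normal interval of the difference that covers counting error only). Among the widest 50% of each list this difference was 0.93 percentage points, and its interval of -0.24 to 2.10 included 0. Peaks more than 100000 bp from a start site made up 18.2% of peaks in the exercised list alone and 22.1% of those in the sedentary list alone.

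Around the starts of protein-coding genes, peak cover was highest 250 bp upstream in both lists. It reached 6.63% of genes in the exercised list and 12.2% in the sedentary list. At 5000 bp on either side it averaged 0.756% and 1.72%, which made the rise at the start 8.77-fold (exercised) and 7.10-fold (sedentary).

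**Figure D2:**
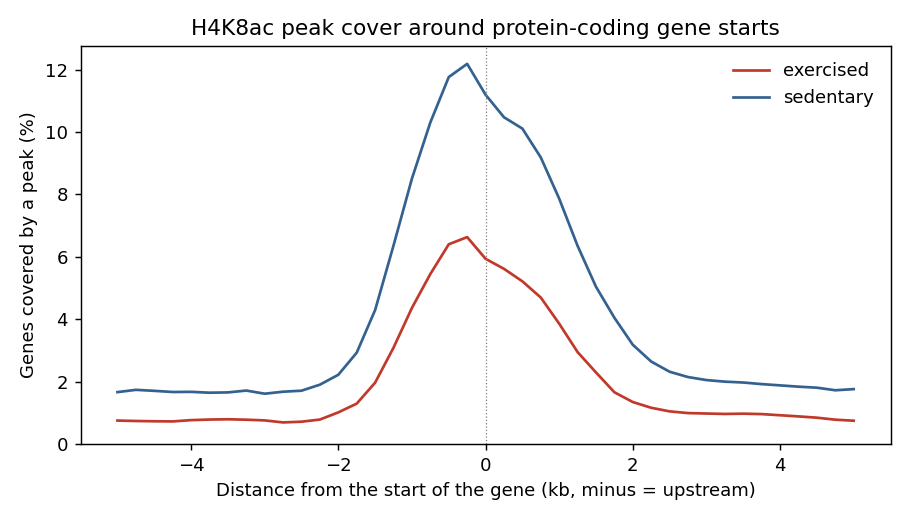
Share of protein-coding genes (percent) with an H4K8ac peak over each position from 5 kb upstream to 5 kb downstream of the gene start, for the exercised (red) and sedentary (blue) list. Both lines peak 250 bp upstream, at 6.63% and 12.2%.

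The DNA under the peaks was similar in composition. Median GC content was 44.6% in the exercised and 44.1% in the sedentary list, and 41.7% in windows of 300 bp taken every 20000 bp along the genome. Promoter peaks had a median of 48.5% and 48.4%. Soft-masked repeats made up a mean of 16.7% and 17.7% of a peak, against 34.4% of the genome windows. Motifs were searched on both strands in the central 300 bases of each peak. The AP-1 motif TGANTCA, bound by Fos and Jun proteins, was in 11.96% of peaks in the exercised list alone and 10.3% of those in the sedentary list alone, against 8.87% of genome windows and 7.81% of all RefSeq promoters. The cAMP response element TGACGTCA was in 0.342% and 0.265% of them, against 0.162% of genome windows and 1.79% of RefSeq promoters. The SP/KLF motif GGGCGG was in 7.06% and 7.13%, against 2.86% of genome windows and 35.7% of RefSeq promoters. In promoter peaks it was in 17.1% (exercised) and 18.4% (sedentary), and the cAMP response element in 0.660% and 0.725%. The E-box CAGATG was in 23.8% of peaks in the exercised list alone and 24.2% of those in the sedentary list alone, against 21.97% of genome windows and 17.2% of RefSeq promoters. The EGR motif GCGTGGGCG was in 1 (0.0228%) and 17 (0.105%) of these peaks, against 0.0195% of genome windows and 0.612% of RefSeq promoters. Peak centres are not start sites, so the windows are not placed as the RefSeq promoters are.

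Peaks were uneven over the chromosomes. Autosomes held between 2.3996 (chromosome 7) and 7.65 (chromosome 10) exercised peaks per Mb, and between 5.20 (chromosome 7) and 13.5 (chromosome 3) sedentary peaks per Mb. Chromosome 7, which had the most protein-coding genes per Mb of the autosomes, thus had the fewest peaks per Mb in both lists. The X chromosome held 41 exercised and 110 sedentary peaks, or 0.240 and 0.643 per Mb, below every autosome. The mice were male, and the part of sex in the low count on X was not tested. Exercised peaks numbered 0.373 times the sedentary ones on X and between 0.461 and 0.655 times on the autosomes.

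The lists assigned peaks to 9156 genes, each peak to the gene it lay in or else to the closest one, whose start site can be far away. Both lists named 4955 of these genes (54.1%), the exercised list alone 837 (9.14%) and the sedentary list alone 3364 (36.7%). Of the 837 genes, 785 rested on a single peak, and of the 3364 genes 2470 did. With the sedentary list reduced to its widest peaks, as many as the exercised list held, 1899 genes were in the exercised list alone and 1639 in the sedentary list alone. The order of these counts thus turned under a change of both list length and peak width. Genes in both lists were longer, with a median of 38040 bp against 20573 bp (exercised alone) and 23886 bp (sedentary alone).

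Gene status was set beside that in the left hippocampus and in the simultaneous isolation of nuclei and RNA (SIT), which came from other samples. In the left hippocampus, where the sedentary list was the longer (36425 peaks against 12168), 47.9% of the 837 genes were in the sedentary list alone 5.14% in the exercised list alone and 15.5% in both. Of the 3364 genes, 47.1% were in the sedentary list alone there, 3.63% in the exercised list alone and 26.0% in both. Over all 9156 genes these shares were 35.5%, 2.50% and 48.9%. In SIT, where the exercised list was the longer (38136 against 30358), 32.4% of the 837 genes were in the exercised list alone, 9.20% in the sedentary list alone and 38.5% in both. Of the 3364 genes, 23.8%, 7.64% and 56.2% were, and of all 9156 genes 16.6%, 4.61% and 71.7%. Of the 837 genes, 43 were in the exercised list alone in the left hippocampus, 271 in SIT and 17 in both. Of the 3364 genes, 1584 were in the sedentary list alone in the left hippocampus, 257 in SIT and 121 in both.

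At the level of peaks, regions shared by both right lists also recurred most often elsewhere. Overlapping peaks were also wider, with medians of 1623 bp (exercised) and 2300 bp (sedentary) against 1487.5 and 1757 bp for peaks alone. The part of width in this recurrence was not tested. Of the overlapping exercised peaks 40.02% met a peak in all 4 left and SIT lists and 2.24% in none. Of peaks in the exercised list alone 5.51% met all 4 and 24.6% none, and of those in the sedentary list alone 10.1% and 17.9%. Few of these regions met H3K27me3, a mark of repressed chromatin. The exercised right H3K27me3 list, which covered 1.51% of the genome, overlapped 16 exercised (0.117%) and 22 sedentary (0.0874%) H4K8ac peaks. The longer sedentary right H3K27me3 list, which covered 4.20%, overlapped 54 (0.394%) and 129 (0.513%).

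**Figure D3:**
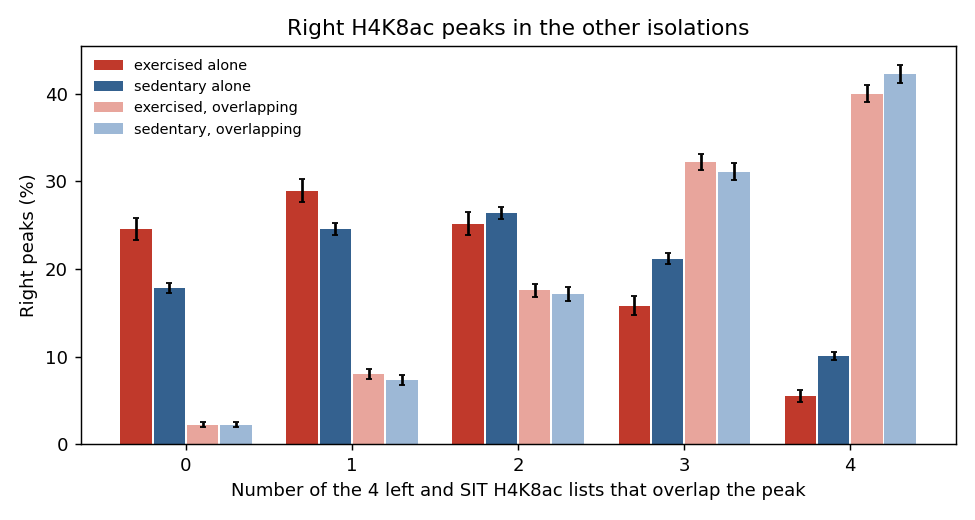
Share of right H4K8ac peaks (percent) by how many of the 4 left and SIT H4K8ac lists overlapped them, for peaks of 1 right list alone (dark) and of both (light), with 95% Wilson intervals. Overlapping peaks sit mostly at 3 or 4 lists, and peaks of 1 list alone mostly at 1 or 2.

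Markers of the excitatory neurons that Emx1-Cre targets were mostly listed. Of 18 excitatory neuron markers, 12 were in both lists, 1 in the exercised list alone and 2 in the sedentary list alone, beside 34.8% of all protein-coding genes with a peak in either list. They included Slc17a7, the vesicular glutamate transporter, with 1 promoter peak in each list, Emx1 itself (2 exercised and 3 sedentary peaks) and Bhlhe22, a neuronal transcription factor (7 and 8). Of 15 CA pyramidal cell markers 12 were in both lists, led by Zbtb20, a regulator of hippocampal identity, with 12 exercised and 15 sedentary peaks. Of 14 dentate granule cell markers 9 were in both, 1 (Ahcyl2) in the exercised list alone and 3 (Prox1, C1ql2 and Plk5) in the sedentary list alone. Prox1, which defines granule cells, had 3 sedentary peaks and none at its promoter.

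Markers of other cells were listed at shares near the background. Of 20 interneuron markers 6 had a peak, of 16 astrocyte markers 5, of 18 oligodendrocyte lineage markers 5, and of 20 microglia and endothelial markers 7. Gad1 and Gad2, the GABA-synthesising enzymes, and the oligodendrocyte factors Olig1 and Olig2 had none in either list. Of the 6 interneuron markers with a peak, 2 were in both lists. Npy and Sst were in the exercised list alone, and Reln and Kcnc1 in the sedentary list alone. The 4 exercised peaks assigned to the peptide gene Npy all lay upstream of its start, the nearest 165077 bp away. Of the 5 astrocyte markers with a peak, 3 were in both lists, the water channel Aqp4 (4 exercised and 9 sedentary peaks), the glutamate transporter Slc1a2 (3 and 9) and Slc4a4 (5 and 6). Slc1a3, another glutamate transporter, had 3 sedentary peaks, and Aldh1l1 had 1. The part of other cells in the results was not tested. None of the 39 Hox genes, which are silent in the forebrain, had a peak.

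Immediate early genes, which neurons switch on within minutes of activity, were in both lists for 13 of 27 members, in the exercised list alone for 2 and in the sedentary list alone for 6. The 13 made up 61.9% of the 21 members with a peak, beside 54.1% for all genes with a peak. Over all genes with a peak, 9.14% were in the exercised list alone and 36.7% in the sedentary list alone. A peak was assigned to 77.8% of the members, beside 34.8% of protein-coding genes. Arc, whose protein acts at active synapses, was in the exercised list alone. Its 3 peaks on chromosome 15 ran from 74672993 to 74674239, 74675310 to 74676984 and 74677165 to 74680374, all upstream of the gene, and the nearest lay 423 bp from the start. The nearest sedentary peak was 28461 bp away. Both left lists and both SIT lists named Arc. Egr2 rested on 1 exercised peak, 51737 bp from its start. Fosb and Jund each rested on 1 sedentary peak, 9122 and 5945 bp away. With the sedentary list reduced to its 13715 widest peaks the counts were 10, 5 and 1.

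Among 21 neurotrophin and exercise growth factor genes, 7 were in both lists, 1 in the exercised list alone and 2 in the sedentary list alone. A peak in either list was thus assigned to 47.6% of them, beside 34.8% of protein-coding genes. Over all genes with a peak, 54.1% were in both lists, 9.14% in the exercised list alone and 36.7% in the sedentary list alone. Bdnf, the neurotrophin most studied in exercise, had 6 exercised and 15 sedentary peaks on chromosome 2, of which 4 in each list overlapped. The peaks covered 11079 bp in the exercised list and 32195 bp in the sedentary list. An exercised peak from 109672916 to 109674404 lay at -296 bp from a start site and 593 bp from the nearest sedentary peak. Sedentary peaks from 109709047 to 109710187 and 109710495 to 109713445, at a promoter inside the gene, had no exercised counterpart. Ppargc1a, a regulator of mitochondrial genes, had 1 exercised and 10 sedentary peaks, and Igf1r, the IGF-1 receptor, 1 and 8. Ppargc1b was in the exercised list alone, through 1 promoter peak of 1077 bp. In the left hippocampus it was in the sedentary list alone, and in SIT in neither list.

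**Figure D4:**
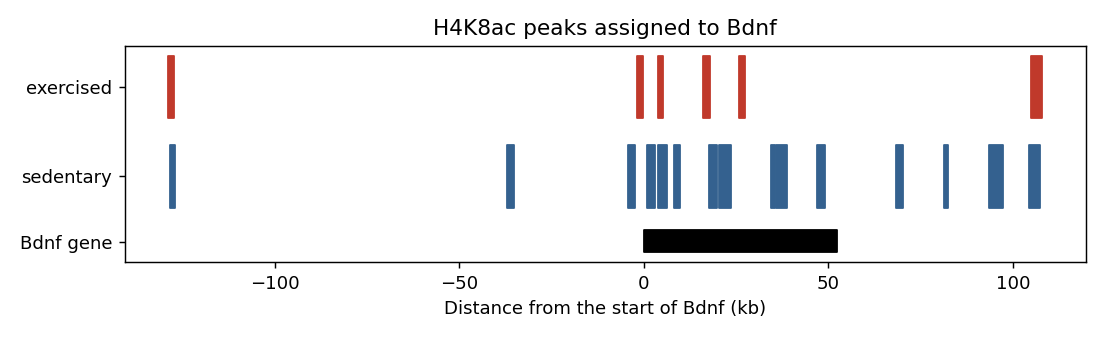
Positions of the H4K8ac peaks assigned to Bdnf, as distance from the start of the gene (kb), with the gene in black, the 15 sedentary peaks in blue and the 6 exercised peaks in red. Exercised peaks are absent over the right part of the gene, where the sedentary list has 3.

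Receptor, channel and synapse genes had a peak more often than the 34.8% of all protein-coding genes, and most are long. The share was 76.0% for glutamate receptor genes, 76.5% for GABA receptor genes and 97.0% for ion channel genes. Their median lengths were 318858, 138253 and 248512 bp, against 17414 bp for protein-coding genes, and the part of length in these shares was not tested. For postsynaptic scaffold genes the share was 90.0% and the median length 106271 bp, and for presynaptic release genes 72.0% and 60494 bp. Of 33 ion channel genes 27 were in both lists, 1 in the exercised list alone (the sodium channel Scn1a) and 4 in the sedentary list alone (Kcnc1, Scn2a, Cacna1b and Cacna1h). Of 25 glutamate receptor genes 11 were in both, 3 in the exercised list alone and 5 in the sedentary list alone. Grik2, a kainate receptor subunit, had 28 exercised and 40 sedentary peaks, and Gria2, an AMPA receptor subunit, 18 and 27. Of 17 GABA receptor genes 10 were in both lists, 2 in the exercised list alone and 1, the extrasynaptic subunit Gabrd, in the sedentary list alone.

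Of 20 postsynaptic scaffold genes 11 were in both lists, 3 in the exercised list alone and 4 in the sedentary list alone. Dlg4, which encodes PSD-95, had 1 sedentary promoter peak from 70028187 to 70030821 on chromosome 11, over a start site, and no exercised peak within 105319 bp. Baiap2, a scaffold of dendritic spines, had 2 exercised peaks in intron 6 and was in the exercised list alone in the left hippocampus too. Of 25 presynaptic release genes 11 were in both lists, 3 in the exercised list alone (Syn1, Unc13b and Bsn) and 4 in the sedentary list alone (Syn2, Cplx1, Rab3a and Sv2a). Of 35 calcium and cAMP signalling genes 17 were in both, 2 in the exercised list alone and 7 in the sedentary list alone. A peak was thus assigned to 74.3% of them, beside 34.8% of protein-coding genes, and their median length was 76131 bp. Among all genes with a peak, 54.1% were in both lists, 9.14% in the exercised list alone and 36.7% in the sedentary list alone. Adcy1, a calcium-stimulated adenylyl cyclase, had 7 sedentary peaks and the nearest exercised peak was 273152 bp away.

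Of all protein-coding genes 34.8% had a peak, and of all genes with a peak 9.14% were in the exercised list alone and 36.7% in the sedentary list alone. Housekeeping and chromatin genes had a peak at shares near the first of these values. Of 33 histone acetylation enzymes and readers 6 were in both lists, none in the exercised list alone and 6 in the sedentary list alone, among them Kat5, an acetyltransferase of H4, Hdac2, a deacetylase, and Brd9, a bromodomain protein with 3 promoter peaks. These 12 genes are too few to set their split apart from that over all genes. Of 38 oxidative phosphorylation genes 3 were in both lists, 2 in the exercised list alone and 5 in the sedentary list alone. Of 42 ribosomal protein genes 6 were in both, 1 (Rpl13a) in the exercised list alone and 7 in the sedentary list alone.

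**Figure D5:**
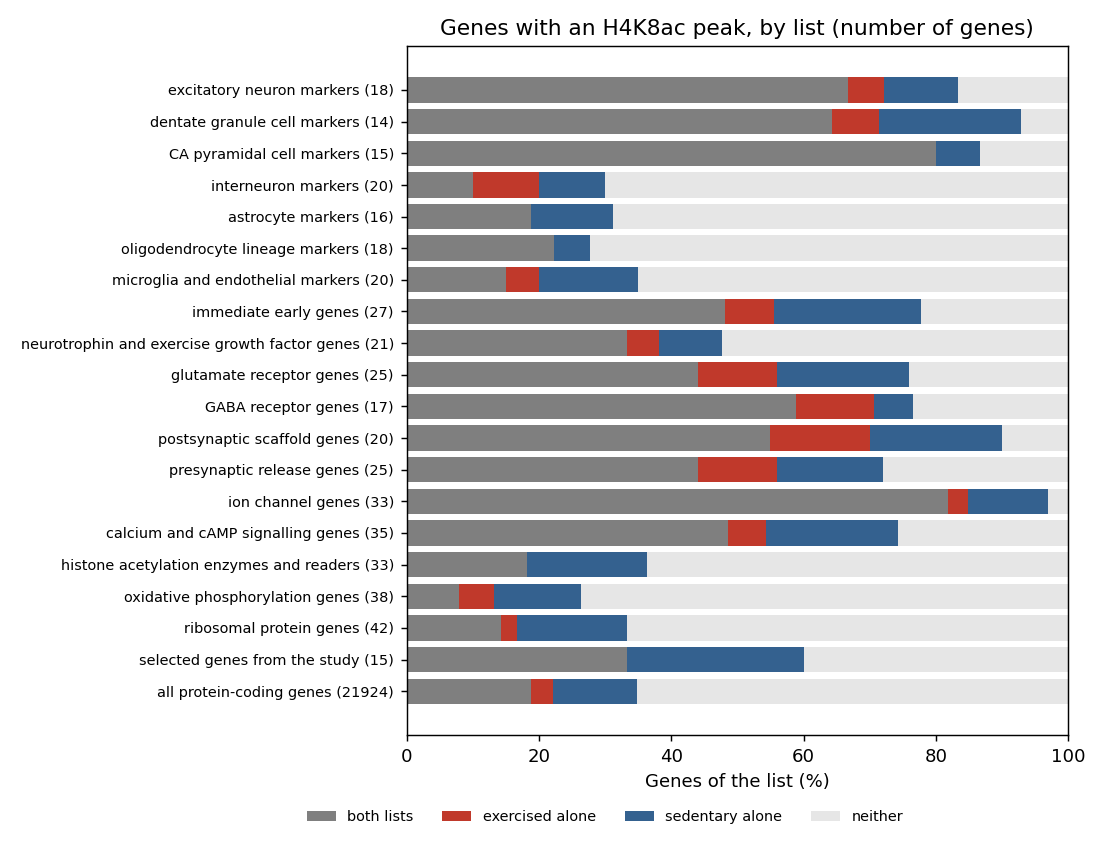
Genes of each list (percent, number of genes in brackets) with an H4K8ac peak in both right lists (grey), the exercised list alone (red), the sedentary list alone (blue) or neither (pale). Excitatory, granule and pyramidal cell and ion channel lists are mostly grey, and interneuron, glial, ribosomal and oxidative phosphorylation lists mostly pale.

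The genes of 1 list alone with the widest cover, and no peak of theirs met by the other list, were chosen by that width, which is a description. On the exercised side Arhgap21, which restrains the GTPase Cdc42, had 6 peaks over 10000 bp, 3 of them at promoters. St3gal2, a sialyltransferase of gangliosides, had 2 promoter peaks of 3449 and 3900 bp. Npy, Gm5622, Arc, Fndc9, Gm15941 and Cilk1 followed, with totals from 6692 down to 5742 bp. In the left hippocampus St3gal2, Npy, Fndc9 and Gm15941 were in the sedentary list alone, Arhgap21, Arc and Cilk1 in both lists and Gm5622 in neither. In SIT Arhgap21 and Fndc9 were in the exercised list alone, Gm5622 in neither and the other 5 in both. On the sedentary side totals were larger, from 19561 bp at Crb1, a polarity gene, to 15461 bp at 1110019D14Rik. Prkcb, protein kinase C beta, had 9 peaks over 17275 bp and Stau2, an RNA transport protein of dendrites, 9 peaks over 16347 bp. Both left lists and both SIT lists named all 8 of these sedentary genes.

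The genes that follow had the same status in the left hippocampus and, among such genes without a peak that overlapped the other right list, the widest total cover summed over the right and left lists. Gng3, a G protein gamma subunit of neurons, had 1 peak of 1539 bp over its start, and Pla2g6, a phospholipase, 1 of 1509 bp over its start. Arl2 had 2 promoter peaks, and Ino80, a chromatin remodeller, 1 peak in an intron. Of these 4 and Baiap2, only Pla2g6 was in the exercised list alone in SIT. On the sedentary side Pard3b, a polarity gene, had 3 intronic peaks over 12468 bp, and Gm29684, Ppp1r12b, Ptpre and Lrrc40 had 7, 4, 4 and 2 peaks. Both SIT lists named all 5.

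Of 15 genes selected from those that the study names, 5 were in both lists (Bdnf, Efnb2, Eno2, Sntb2 and Syt4), 4 in the sedentary list alone (Prox1, Kptn, Col3a1 and Dlg4) and 6 in neither (Asphd1, Fdxr, Rtl1, Epop, Myoc and Thy1). The shares of all genes with a peak were 54.1% (both), 9.14% (exercised alone) and 36.7% (sedentary alone). A peak was assigned to 34.8% of protein-coding genes. All 4 genes of the sedentary list alone had the same status in the left hippocampus, as did 47.1% of the 3364 genes of that status. The sedentary list was the longer there. In SIT, where the exercised list was the longer, Kptn, Col3a1 and Dlg4 were in the exercised list alone and Prox1 in both. Of the 3364 genes, 23.8% were in the exercised list alone in SIT and 56.2% in both. Eno2, the neuronal enolase, had 1 peak over its start in each list, 2137 bp wide (exercised) and 3001 bp (sedentary). Sntb2, a syntrophin, had 1 exercised peak of 3012 bp in its first intron, over a sedentary peak of 2439 bp. Efnb2, an ephrin ligand, had 5 exercised and 11 sedentary peaks, of which 3 in each list overlapped. The study named Prox1, Sntb2 and Kptn as upregulated genes with new H4K8ac after exercise. In the right lists Prox1 and Kptn had peaks in the sedentary list alone, and Sntb2 had 1 exercised and 3 sedentary peaks. The study discussed some of the 15 genes for results of this series, so their status is not independent evidence.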

How the data were processed

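H4K8ac was measured by CUT&RUN on nuclei of the right hippocampus, with 3 samples per condition in the labels. The deposited lists give, for each peak, its mm10 position, width, annotation, distance to the start site of the assigned gene and gene symbol. Per the labels and methods, the authors aligned reads with Bowtie2 (2.4.1), called peaks with SEACR at 0.01 and annotated them with ChIPseeker (1.8.6). The methods give a minimum depth for a library, but how libraries were combined is not given in the sources used here and the lists hold no counts, which leaves the number of reads behind a list unknown. Overlap of at least 1 bp, shares, gene status and base composition were computed with Python, numpy, pandas and scipy, with overlap functions tested on simulated data. Of the deposited symbols, 98.3% (exercised) and 98.2% (sedentary) equalled the GENCODE M21 name of the peak's own transcript. Printed windows were the 200 bases nearest a peak's centre (for Eno2, the shared part) that held no annotated UTR. Members, gene lists and naming rules were chosen with earlier results of these data known. Named genes were 15 selected from those the study names, the 8 per condition with the widest cover and no overlapped peak, the 5 also alone in the left hippocampus, the 5 widest in both lists, the widest peaks, and up to 4 members per list in 1 condition alone. Others named from the lists were chosen after their values were seen. No test was made.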

Additional observations from a re-analysis of the deposited data

How the results depend on the processing

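No paired analysis was possible because each condition had 1 pooled list, and for the same reason no replicate could be left out. Requiring a reciprocal overlap of 50% gave 39.2% of exercised and 21.4% of sedentary peaks shared, and counting peaks within 1000 bp gave 71.9% and 38.9%. With the sedentary list reduced to its widest peaks, to equal list lengths, the shares were 50.1% and 45.7%, the ratio of median widths 0.65, and 1899 genes were in the exercised list alone and 1639 in the sedentary list alone. With the widest 50% of each list the shares were 56.6% and 29.5%, the width ratio 0.79, and 2720 genes were in both lists. Promoter peaks alone left 2314 genes in both. With at least 2 peaks per gene, 249 genes were in the exercised list alone, 1980 in the sedentary list alone and 2162 in both. The promoter share stayed higher in the exercised list under every alternative run, by 1.71 to 3.14 percentage points, while the share within 1000 bp of a start site was higher by 0.93 (-0.24 to 2.10) in the widest 50% of each list. The cause of these shifts was not tested. Without read depth, a region missing from a list may lie just under the threshold.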
